A study of Rattus norvegicus with 8 samples.

Results

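Neurofilaments are the main intermediate filaments of neurons with large axons. The genes described here encode 3 of their chains, light (Nefl, ENSRNOG00000013658), medium (Nefm, ENSRNOG00000013916) and heavy (Nefh, ENSRNOG00000008716). They were chosen by these Ensembl identifiers, which the count table lists without names, and all 3 of the 3 identifiers were found among its 32883 genes. All 3 also passed the filter on low counts that left 3073 genes for testing.

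The light chain forms the core of the filament, and the medium and heavy chains join it and carry long, heavily phosphorylated tails that project between filaments. The number of filaments helps to set the width of myelinated axons and so how fast they conduct. The mRNA is made in the cell body, in the spinal cord above all in motor neurons and other large neurons, while the protein travels down the axon. Neurons whose peripheral axon has been cut are known to lower their neurofilament mRNA, and the light chain released from damaged axons is widely measured in blood as a marker of axon loss. In the RefSeq gene table of assembly GRCr8, Nefl and Nefm lie on 1 chromosome with 1 other annotated gene, not protein-coding, starting between them, and Nefh lies on another chromosome.

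The RNA was from cords of outbred Sprague Dawley rats and was compared between cord collected 4 days after injury, which the series title gives as a hemisection (the cord is severed on one side) at thoracic level 9, and cord of rats without spinal cord injury. Each group had 4 libraries, numbered 1 to 4. The title calls the tissue upper lumbar cord and the sample labels upper spinal cord. The question was how an injury elsewhere in the cord changes the RNA of cord that was not itself cut. The sources used here do not give age, sex, any sham surgery, or whether the libraries stand for separate rats, so the p-values measure the spread between libraries, which may be technical.

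CEL-Seq2, the library method, sequences the 3' ends of transcripts and marks each molecule with a random barcode (unique molecular identifier, UMI), so that a transcript counts once whatever its length. Levels of the 3 chains can therefore be set side by side without dividing by length, apart from differences in how well each 3' end is captured. Library totals ran from 112264 to 221177 UMIs in uninjured and from 195113 to 320199 in injured cord. Levels are given as counts per 1000000 UMIs of the library total (CPM) unless they are named as TMM-scaled. TMM is a scaling of library totals that discounts the few genes that differ most, and fold changes are from edgeR fits on TMM-scaled totals unless library totals are named. Their errors are standard errors (SE). Among the injured libraries, injured 4 stood apart, and so did uninjured 4 in its group. Of 700 genes with a mean count of 50 or more, it held 6 (0.857%) at more than 2-fold above the next highest injured library, against 1 or 2 genes in each other injured library and 0 to 4 in each uninjured one. Nefm and Nefh were 2 of these 6. Injured 4 also held 15 of the 700 genes at more than 2-fold below the next lowest injured library, against 0 to 3 in the others of its group, and uninjured 4 held 12 below its group, against 0 to 6 in the other uninjured libraries. The mean correlation with its own group across tested genes was lowest for uninjured 4 (0.843, against 0.861 to 0.875 in the other uninjured libraries) and, among the injured, for injured 4 (0.877, against 0.900 to 0.908). The fold changes below are therefore given with and without injured 4, which held the extreme values of Nefm and Nefh, and once without uninjured 4.

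Across all 8 libraries, fitted without pairing them by number, no neurofilament chain passed the test for a difference between injured and uninjured cord. In injured libraries 1 to 3 all 3 chains were below their uninjured means, while in injured 4 Nefm and Nefh were above every other library. The call rule (a Benjamini-Hochberg adjusted p below 0.05 in the quasi-likelihood test of edgeR) took 0 of the 3 chains, against 2.28% of all tested genes in either direction and 0.13% lower. DESeq2 and limma-voom also called 0 of the 3, against 0.418% and 0.26% of their genes called lower. At an unadjusted p under 0.05 the edgeR fit took 1 of the 3, Nefl, against 14.1% of all tested genes in either direction and 5.69% lower. With libraries paired by number, as described below, Nefl alone was called lower (edgeR adjusted p = 0.0418), against 4.72% of all tested genes. In none of the 3 did every injured library lie on one side of every uninjured one, as was the case for 9.05% of tested genes on TMM-scaled values (3.51% lower in injured cord). In bulk tissue such as this, fewer neurons and less RNA per neuron cannot be told apart.

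The light chain was the most abundant of the 3, with 168 to 512 UMIs per library, and by mean count it ranked 75 among the 3073 tested genes. Nefl was at 2315, 1790, 1413 and 1235 CPM in uninjured libraries 1 to 4. It was at 1272, 956, 1064 and 1778 CPM in injured libraries 1 to 4. Injured 2 and 3 lay below every uninjured library, and injured 1 lay just above the lowest of them. Injured 4 lay within the uninjured range, so the groups overlapped. On TMM-scaled values injured 1 to 3 (1316, 981 and 1161) all lay below the uninjured libraries (1549 to 2445), and injured 4 (2006) lay within them. The means were 1688 ± 478 CPM in uninjured and 1268 ± 365 CPM in injured cord (SD, n = 4). The fitted log2 fold change was -0.52 (SE 0.24, 95% interval -1.04 to -0.0031, edgeR adjusted p = 0.352), and -0.40 with library totals as the only scaling (edgeR adjusted p = 0.531). A fall to 0.487-fold thus lay at the edge of the interval.

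Nefm, the medium chain, had 82 to 319 UMIs per library. It was at 674, 1060, 610 and 772 CPM in uninjured libraries 1 to 4. In injured libraries 1 to 4 it was at 352, 444, 603 and 1635 CPM. Injured 1 to 3 were below all 4 uninjured libraries, though injured 3 only by 603 against 610 CPM, and injured 4 was above all of them. The means were close, 779 ± 199 CPM in uninjured and 758 ± 594 CPM in injured cord (SD, n = 4), with an SD 2.98 times as large in injured cord. The log2 fold change was -0.15 (SE 0.40, 95% interval -0.997 to 0.70, edgeR adjusted p = 0.917). This interval reaches from 0.501-fold to 1.63-fold, so the comparison neither shows a change of Nefm nor shows that it stayed the same.

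Nefh, the heavy chain, had 72 to 241 UMIs per library. It was at 678, 846, 535 and 529 CPM in uninjured libraries 1 to 4. It was at 407, 506, 536 and 1235 CPM in injured libraries 1 to 4. Here 2 injured libraries lay below all uninjured ones, injured 3 was level with the lower pair of them, and injured 4 was again above all. On TMM-scaled values injured 1 to 3 (421, 519 and 585) all lay below the uninjured libraries (659 to 979), and injured 4 (1393) lay above them. The means were 647 ± 149 CPM in uninjured and 671 ± 380 CPM in injured cord (SD, n = 4). The log2 fold change was -0.06 (SE 0.32, 95% interval -0.74 to 0.62, edgeR adjusted p = 0.961), and its sign turned with library totals as the only scaling (0.07, edgeR adjusted p = 0.960).

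**Figure D1:**
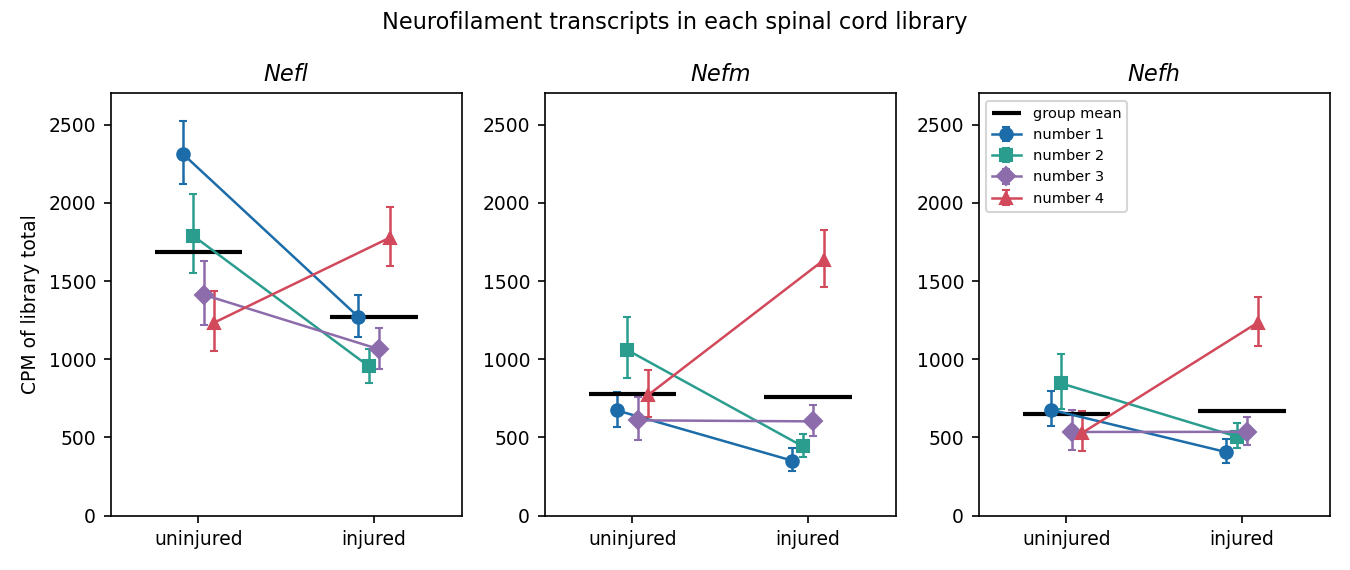
Levels of Nefl, Nefm and Nefh (y axis, CPM of library total) in uninjured and injured cord. Each symbol is 1 library with its exact Poisson 95% interval, which covers counting error only, lines join libraries of the same number and black bars are group means (n = 4); the line of number 4 rises in all 3 panels, to 1778, 1635 and 1235, while those of numbers 1 and 2 fall.

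The height of injured 4 was beyond counting error for the medium and heavy chains. Its exact Poisson 95% interval for Nefm ran from 1460 to 1825 CPM, against 511 to 707 CPM for the next highest injured library and 878 to 1268 CPM for the highest uninjured one. For Nefh it ran from 1084 to 1401 CPM, against 450 to 634 CPM in injured 3 and 685 to 1034 CPM in uninjured 2. On TMM-scaled values Nefm in injured 4 was 2.80-fold and Nefh 2.38-fold above the next highest injured library, and 1.504-fold and 1.42-fold above the highest uninjured one. Nefl was only 1.52-fold above the next injured library and did not exceed uninjured 1 or 2. In this library the height over the next injured one was thus larger for Nefm and Nefh than for Nefl, a difference that was not tested. Injured 4 was also the shallowest injured library, with 195113 UMIs against 253670 to 320199, and the part of depth in its values was not tested.

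Injured 4 was singled out partly for its own high values of these chains, so leaving it out favours a fall. Without it, the fitted changes of all 3 chains were larger and negative. The log2 fold change became -0.76 for Nefl (SE 0.23, edgeR adjusted p = 0.0837), -0.89 for Nefm (SE 0.27, edgeR adjusted p = 0.0837) and -0.57 for Nefh (SE 0.24, edgeR adjusted p = 0.251). This fit also called 0 of the 3 chains, against 3.28% of all genes it tested (0.352% lower). All 3 had an unadjusted p under 0.05, as did 15.5% of all genes in this fit (6.62% lower). With library totals as the only scaling, and still without injured 4, the values were -0.60, -0.71 and -0.40, again with no call (edgeR adjusted p of 0.235, 0.163 and 0.505, with 0.264% of genes called lower). Injured libraries 1 to 3 averaged 1097 ± 161 CPM of Nefl, 466 ± 127 CPM of Nefm and 483 ± 67.7 CPM of Nefh (SD, n = 3), which is 35.0%, 40.2% and 25.4% below the uninjured means. Without uninjured 4 instead, the log2 fold changes were -0.62, -0.12 and -0.11 for Nefl, Nefm and Nefh, with no call (edgeR adjusted p of 0.228, 0.930 and 0.908, with 0.404% of genes called lower).

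Libraries of the same number, which no label calls pairs, deviated together across the tested genes, so the numbers were also fitted as pairs. This choice drew on the same counts as the fit. The fall of Nefl then passed the test, with a log2 fold change of -0.56 (SE 0.17, 95% interval -0.92 to -0.19, edgeR adjusted p = 0.0418). With the pairs 1 of the 3 chains was called, against 4.72% of all tested genes called lower and 11.4% called in either direction. Among the 306 genes with a mean count of 100 or more, to which all 3 chains belong, 19.3% were called lower and 14.1% higher. The call of Nefl stood near the threshold. It was kept by limma-voom with the pairs (adjusted p = 0.0288, with 5.37% of genes called lower) and lost with DESeq2 and the pairs (adjusted p = 0.223, with 0.975% called lower), with library totals as the only scaling (log2 fold change -0.40, edgeR adjusted p = 0.147, with 1.92% called lower), at equal depth (-0.54, edgeR adjusted p = 0.0531, with 4.37% called lower), and when pair 1, 2 or 3 was left out (-0.42, -0.38 and -0.55, edgeR adjusted p of 0.282, 0.177 and 0.169). Nefm (-0.39, SE 0.24, edgeR adjusted p = 0.346) and Nefh (-0.20, SE 0.22, edgeR adjusted p = 0.624) were not called with the pairs.

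**Figure D2:**
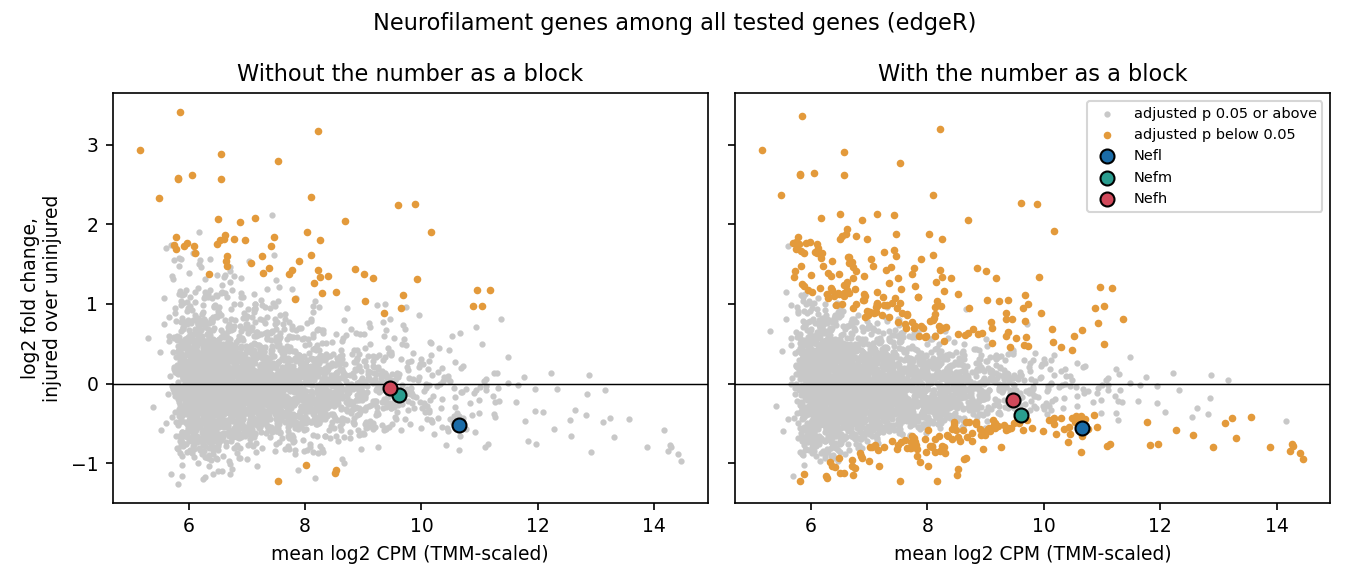
Each point is 1 of 3073 tested genes, by mean TMM-scaled log2 CPM (x axis) and edgeR log2 fold change of injured over uninjured cord (y axis), without (left) and with (right) the library number as a block. Orange marks an adjusted p below 0.05 (2.28% of genes on the left, 11.4% on the right), and the 3 chains lie among the abundant genes, with Nefl lowest at -0.52 and -0.56.

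Pair by pair, the 3 chains were all lower in the injured library of pairs 1 and 2 and all higher in that of pair 4. In pair 1 the injured library held 0.549-fold the Nefl, 0.522-fold the Nefm and 0.5998-fold the Nefh of its uninjured partner, in CPM of library totals. Pair 2 was alike, at 0.534-fold, 0.418-fold and 0.598-fold. In pair 3 Nefl was at 0.753-fold, while Nefm and Nefh were level, at 0.989-fold and 1.002-fold (0.877-fold and 0.888-fold on TMM-scaled values). In pair 4 the injured library held 1.44-fold the Nefl, 2.12-fold the Nefm and 2.33-fold the Nefh. None of the 3 therefore moved one way in all 4 pairs, whereas 29.3% of tested genes did so on TMM-scaled values, with 14.3% of all tested genes lower in the injured library of each pair. With 1 pair per number, whether pair 4 differs from the others in its response could not be tested against replicate error.

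Without pair 4, a choice made after its values were seen and one that favours a fall, all 3 chains were called lower. The log2 fold changes were -0.85 for Nefl (SE 0.15, edgeR adjusted p = 1.77e-06), -0.87 for Nefm (SE 0.16, edgeR adjusted p = 1.31e-05) and -0.62 for Nefh (SE 0.16, edgeR adjusted p = 0.00239). In this fit 5.61% of all tested genes and 21.9% of the 306 more abundant ones were called lower, and 14.3% of all were called in either direction. With library totals as the only scaling the same 3 pairs gave -0.71, -0.73 and -0.48 (edgeR adjusted p of 0.000168, 0.00115 and 0.044), and 2.61% of genes were called lower. Leaving out any other pair with the block gave no call of any chain, where 1.81%, 2.93% and 2.03% of genes were called lower without pairs 1, 2 and 3. These fits had log2 fold changes from -0.55 to -0.38 for Nefl, -0.47 to -0.05 for Nefm and -0.22 to 0.04 for Nefh.

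**Figure D3:**
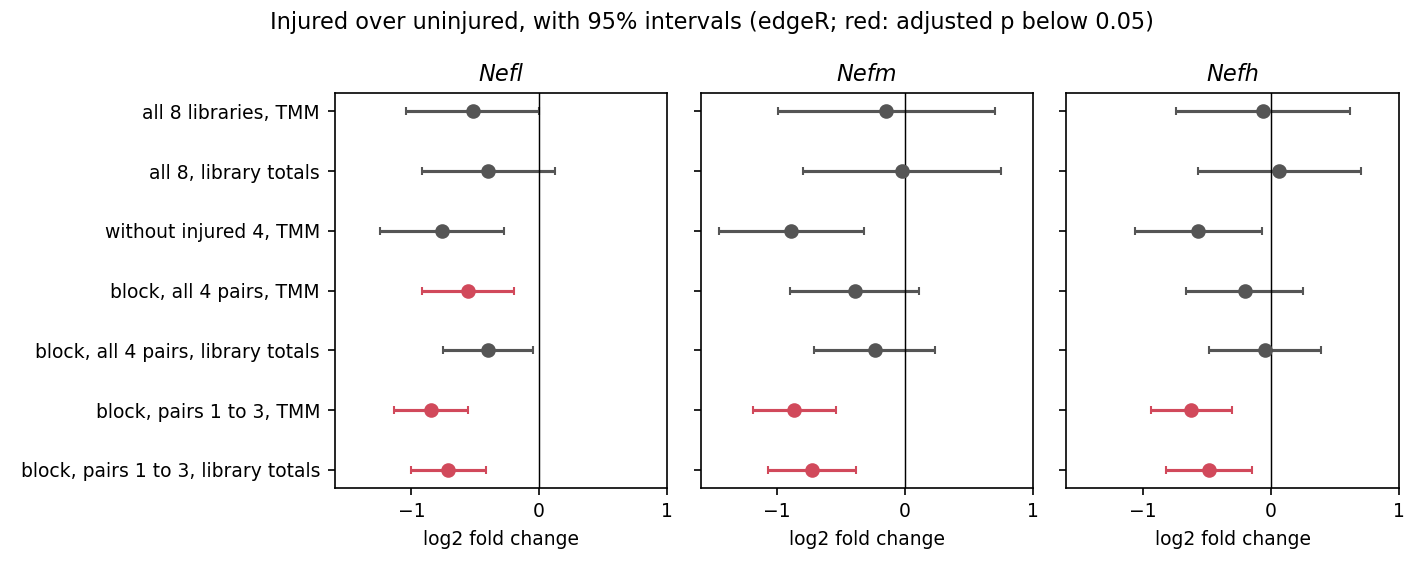
Log2 fold change of injured over uninjured cord (x axis) with its 95% interval for each chain under 7 edgeR fits (y axis), red where the adjusted p is below 0.05. The fits over all 4 pairs or all 8 libraries lie nearer to 0 than those without injured 4 or pair 4, where Nefm moves from -0.15 to -0.89 without the block and from -0.39 to -0.87 with it.

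The 3 chains together made up 0.311% ± 0.0655 of all UMIs in uninjured and 0.270% ± 0.131 in injured cord (SD, n = 4). Their sum was 1905 to 2204 CPM in injured 1 to 3, 2537 to 3697 CPM in the uninjured libraries and 4649 CPM in injured 4. On the summed level injured 1 to 3 thus lay below, and injured 4 above, all 4 uninjured libraries.

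Within that sum, Nefl was the largest part in every library. It made up 53.9% ± 6.93 of the UMIs of the 3 chains in uninjured and 49.8% ± 10.01 in injured cord (SD, n = 4). Nefm made up 25.3% ± 5.41 and 25.8% ± 7.49, and Nefh 20.8% ± 1.80 and 24.4% ± 3.08, in the same order. Libraries 1 of both groups were the richest in Nefl, with 63.1% (Wilson 95% interval 59.8% to 66.4%) in uninjured 1 and 62.6% (58.5% to 66.6%) in injured 1. Injured 4 was the poorest, with 38.3% (35.1% to 41.5%), and there Nefm, at 35.2% (32.1% to 38.3%), nearly equalled it. The order Nefl, Nefm, Nefh held in 5 of 8 libraries, and in uninjured 1, injured 1 and injured 2 Nefh had more UMIs than Nefm, with overlapping intervals in each.

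**Figure D4:**
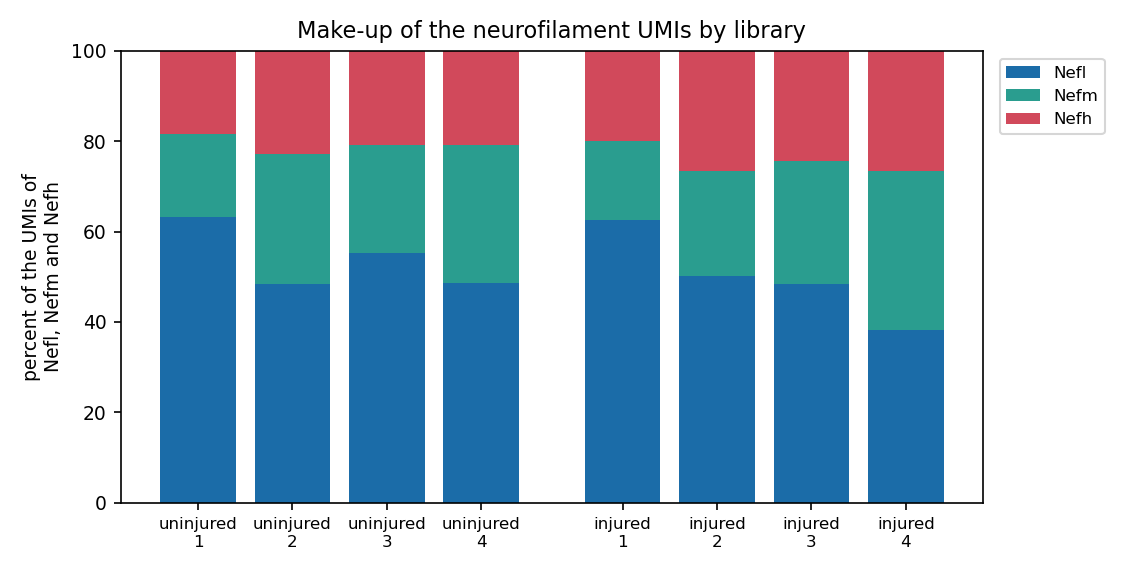
Share of Nefl, Nefm and Nefh (y axis, percent) in the UMIs of the 3 chains in each library (x axis). The Nefl part is largest in libraries 1 of both groups, at 63.1% and 62.6%, and smallest in injured 4, at 38.3%.

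Ratios between chains within a library do not depend on how libraries are scaled. The ratio of Nefh to Nefl was 0.387 in uninjured and 0.493 in injured cord (geometric means), a log2 difference of 0.35 (two-sided exact permutation p = 0.257, 0.471 adjusted over the 3 ratios, n = 4 per group). Nefh to Nefm went from 0.834 to 0.970, a log2 difference of 0.22 (two-sided exact permutation p = 0.314, adjusted 0.471). Nefm to Nefl went from 0.464 to 0.509, a log2 difference of 0.13 (two-sided exact permutation p = 0.857, adjusted 0.857). Both ratios with Nefh on top were higher in the injured library of 4 of 4 pairs, for which the two-sided exact paired permutation p was 0.125, the smallest that 4 pairs allow. Nefm to Nefl was higher in 2 of 4 (exact paired permutation p = 0.625). In pair 3 Nefh to Nefm was nearly level, at 0.878 in the uninjured and 0.889 in the injured library. Both ratios with Nefh on top also share that chain, so they are not independent. A change with injury in the proportions of the 3 mRNAs was not shown, and these counts do not measure the protein chains.

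The medium and heavy chains followed each other closely across the 8 libraries. For log2 CPM of Nefm and Nefh, Pearson's r was 0.944 (exact permutation p = 0.000744, adjusted over 3 relations 0.00223) and Spearman's rho 0.833 (exact permutation p = 0.0154, adjusted 0.0461). Without the 2 libraries farthest from the median of Nefm, injured 1 and injured 4, r was 0.799, and without injured 4 alone it was 0.880. Nefl followed them less closely, with r of 0.556 with Nefm (exact permutation p = 0.152, adjusted 0.152) and 0.634 with Nefh (exact permutation p = 0.0925, adjusted 0.139). Spearman's rho for these was 0.595 (exact permutation p = 0.132, adjusted 0.132) and 0.667 (exact permutation p = 0.0831, adjusted 0.125), and r without uninjured 1 and injured 2, the farthest in Nefl, was 0.724 and 0.808. Whether the relation of Nefm and Nefh is closer than those of Nefl was not tested. The points share library totals, both groups were pooled, and 4 libraries per group are too few for a value within each. The permutations also treat the 8 libraries as exchangeable, although libraries of the same number deviated together, so these p-values may be too small.

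The spread between libraries was widest for Nefm and Nefh in injured cord, through injured 4. The coefficient of variation of CPM was 28.3%, 25.6% and 23.1% for Nefl, Nefm and Nefh in uninjured cord (n = 4). It was 28.8%, 78.3% and 56.7% in injured cord (n = 4) and 14.6%, 27.3% and 14.01% in injured 1 to 3 (n = 3). No difference in spread was tested. The biological coefficient of variation that edgeR fitted was 0.396 for Nefm and 0.322 for Nefh, above the 0.252 and 0.251 of its trend at their abundance, and 0.254 for Nefl, at the trend of 0.253. With the pairs as a block it was 0.239, 0.217 and 0.184, against trends of 0.136, 0.135 and 0.141.

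Of the 3070 other tested genes, ENSRNOG00000001156 and ENSRNOG00000004686 were the most like the chains, by Pearson's r over 8 libraries between TMM-scaled log2 CPM and the mean of the 3 chains. These r were 0.907 and 0.902, the highest of 3070. ENSRNOG00000001156 was at 283 TMM-scaled CPM in injured 4, at most 159 in the other injured libraries and 183 to 277 in uninjured cord. ENSRNOG00000004686 was at 249, at most 155, and 138 to 186 in the same order. Both had their highest value in injured 4, as Nefm and Nefh did. They were picked for following the chains over these same 8 libraries, so this peak comes with the choice and is no separate result. Their mean counts were 35.1 and 26.6. Neither passed the injury test without the pairs (edgeR adjusted p of 0.603 and 0.763), which the choice also favours, as the chains did not pass it there.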

How the data were processed

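The deposited file holds raw UMI counts per Ensembl gene, not normalized by the authors, for 8 CEL-Seq2 libraries. HISAT2 2.0.4, HTSeq 0.6.0 and the build Rnor_6.0 are named per the submitters' processing notes, while the sources used here do not give the annotation release, tag length, strand use or filters. Each column was assigned by the code that its name and a sample title share, with 0 left unmatched. No identifier of the table matched the RefSeq table (0 of 32883), so the 3 chains carry the names they were chosen under, and lists of other filament, neuron and cell type genes were not analysed here. The labelled tissue could therefore not be checked against marker genes.

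The main fit used edgeR 4.0.16 in R 4.3.3: filterByExpr (minimum count 10, minimum total 15), TMM, glmQLFit and glmQLFTest over all 8 libraries, with p-values adjusted over all tested genes. SE is the fitted change over the root of its F statistic, and 95% intervals use the fit's total degrees of freedom. Intervals on counts and shares cover counting error only. DESeq2 1.42.0 (genes with a count, no filterByExpr) and limma-voom 3.58.1 were alternatives, and equal depth means 11 random draws of 112264 UMIs per library, given as medians. The correction for tag collisions assumes 6-base tags, since no count exceeded 4047 and 4096 such tags exist.

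The numbers 1 to 4 come from the titles, and no label calls them pairs. They were treated as pairs because all same-number correlations of deviations from group means exceeded 0.1 (0.389, 0.297, 0.342 and 0.423 over 3073 genes, which are not independent replicates). Pairs of unlike number ran from -0.311 to 0.241, with injured 2 and uninjured 1 (0.241) and injured 1 and uninjured 2 (0.153) also above 0.1, though none exceeded the same-number value of either library. No 2 libraries of one group matched within counting noise (chi-square per degree of freedom 2.64 to 7.27), and none was merged. All 3 chains are named by rule, with the genes most correlated with their mean, of which 2 are printed. The chains, lists and tests were chosen with earlier results of these data known.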

Additional observations from a re-analysis of the deposited data

Results flagged for a closer look

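Within groups of 4 libraries, 22 sets of values were examined for a library far from the other 3, and 2 sets held one. Chance gives about 1 in 20, so 2 of 22 is near the number that chance gives. The sets also overlap, as most are levels, shares and ratios of the same chains. In both flagged sets the library was injured 4. Its Nefh level was 1235 CPM, against 407 to 536 CPM in the other injured libraries. Its summed level of the 3 chains was 4649 CPM, against 1905 to 2204 CPM. These 2 values are not independent, since the sum holds Nefh. Nefm in injured 4, at 1635 CPM against 352 to 603 CPM, did not reach the same bound.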

How the results depend on the processing

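No chain was called without the replicate block under any setting tried. With the replicate block Nefl was called (-0.56), also with the correction for tag collisions (-0.56), with limma-voom (-0.56), without pair 4 (-0.85) and without pair 4 on library totals (-0.71). The last 2 settings also called Nefm (-0.87 and -0.73) and Nefh (-0.62 and -0.48). With all 8 libraries the replicate block left Nefm and Nefh without a call. Against -0.06, Nefh turned positive with library totals as the only scaling (0.066), with no low-count filter (0.060), and with the replicate block without pair 1 (0.0074) or pair 2 (0.038). Leaving out 1 library gave -0.76 to -0.39 for Nefl, -0.89 to 0.11 for Nefm and -0.57 to 0.14 for Nefh, the lowest each time without injured 4. Nefm turned positive without uninjured 2, injured 1 or injured 2, and Nefh without these or injured 3. The log2 ratio of Nefm to Nefl differed, injured minus uninjured, by -0.15 (without injured 4) to 0.42. This difference was also negative without uninjured 1 (-0.09). The differences in log2 ratio of Nefh to Nefl (0.18 to 0.56) and Nefh to Nefm (0.12 to 0.34) kept their sign. Taken within pairs (replicate block), the differences of the 3 log2 ratios were 0.13, 0.35 and 0.22. The summed share differed by -0.0418 percentage points, and by -0.107 to -0.0154 with 1 library left out. The causes were not tested.

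Of the 3073 genes tested in the main fit, 66 were called higher and 4 lower. The other fits tested 3073 genes too, unless another number is given. The replicate block gave 206 and 145, or 305 and 59 on library totals and 197 and 134 after the tag correction (of 3068 genes). It gave 130 and 85 at equal depth (of 1943), 193 and 165 with limma-voom, and 77 and 30 with DESeq2 (of 3076). With 1 pair left out it gave 92 to 305 and 46 to 196 (of 2547 to 3493). Without the block, library totals gave 109 and 1, no filter 190 and 9 (of 12612), and DESeq2 82 and 19 (of 4542). Limma-voom gave 48 and 8, and a mean count of at least 20 gave 64 and 8 (of 1717). As a share, no filter called 1.58% of its genes, against 2.28% in the main fit. With any 1 library left out the calls were 35 to 100 higher and 0 to 14 lower, of 3107 to 3470 genes (edgeR, 0 without uninjured 3 or injured 1, with 420 and 338 genes in either direction at an unadjusted p under 0.05). On library totals the median change over all genes was 0.12 in log2, against -0.03. The 95% interval of each chain spanned about a log2 unit or more without the block, and that of Nefl was about as wide at equal depth (-1.02 to -0.017) as at full depth (-1.04 to -0.0031).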
